A study of Mus musculus with 6 samples.

Results

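The genes described here are 10 transcription factors of the cardiac fibroblast and epicardial lineage, namely Gata4, Gata6, Tbx5, Tbx20, Nkx2-5, Meis1, Mef2c, Wt1, Tcf21 and Hand2. Their members are the regions that the deposited tables name for one of these genes by the nearest transcription start site (TSS). There were 91 such entries of 456310 in 4 tables, and they covered 61 distinct T set positions and 14 distinct S set positions. The data were 6 CUT&Tag libraries of primary murine cardiac fibroblasts from heart tissue, prepared to find where TAZ and SRF sit on chromatin. CUT&Tag uses an antibody to direct a transposase to its target, so sequenced fragments mark DNA next to that protein. Labels mark the libraries T or S without an antibody, and T is taken to be TAZ and S to be SRF. Each set held 3 libraries, 1 per treatment, with no replicate. The cells had been left as NC (not spelled out in the labels), given TGF-b, or given TGF-b together with an siRNA, labelled SiTAZ for T libraries and SiSRF for S libraries. The text of the study describes siRNA against Piezo2 in this experiment, so the target is left as labelled. TGF-b is the cytokine that turns fibroblasts into contractile, matrix-secreting myofibroblasts. The series' own description mentions deletion of Tet3 by a Cre virus, which no sample label carries, and neither genotype, age of the animals nor pooling of animals is given per sample. A library therefore stands for 1 culture of unstated origin, and differences between libraries could not be set against biological spread.

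GATA, T-box and homeobox factors bind one another and shared enhancers in the developing heart, and they are best known for switching on heart muscle genes. Fibroblasts of the heart derive largely from the epicardium, keep Tcf21 and part of this set of factors active, and retain Gata4 and Tbx20. SRF and Mef2c are both MADS box proteins. TAZ has no DNA-binding domain and reaches DNA through TEAD factors. A region next to one of these genes shows where the profiled protein sat and not how much of the gene's RNA was made.

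The signal of a region is its normalized read density as deposited, per kb of a 2 kb window. The whole reads behind it were recovered, at 0.5 density units per read, in all 91 entries. The windows held 0 to 46 reads. Median reads of the earlier and the later library were 7 and 6 for TGF-b against NC and 4 and 5.5 for siRNA against TGF-b among T libraries, and 6.5 and 10 and then 7 and 7 among S libraries. At least 1 library held 3 reads or fewer in 20 of 36, 19 of 36, 3 of 8 and 4 of 11 entries. A library with 0 reads allows up to 3 reads by counting error, so folds against it are given with its reads set to 3. Such folds are marked "at least". They take the other library's count as exact and can exceed the near end of the 95% interval. Distances run from the middle of a region to the nearest annotated start of any transcript of the gene, in all 91 entries, and are negative before it. Each log2 ratio is the later over the earlier treatment of a table, and its 95% interval covers counting error only. In each of the T set tables, 7 pairs of neighbouring member regions lay within 2 kb of each other and so shared part of their reads. Marker genes check the cell type only loosely in chromatin data. Of 8 fibroblast markers, 7 had a region when TGF-b was compared with NC among T libraries, 6 when siRNA was compared with TGF-b, and 2 in either S set table. Of 6 cardiomyocyte markers the numbers were 6, 4 and 3, of 4 endothelial markers 4, 4 and 3, and of 4 immune markers 2 throughout. Regions were thus found at markers of each of these cell types.

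The start sites of Tbx20 and Nkx2-5 are shown because these promoters held T set regions with a value in all 3 libraries and with unlike patterns, nearly level at Tbx20 and highest with TGF-b at Nkx2-5. RefSeq promoter windows (GRCm38.p6) were found for 6 of the 10 genes, 8 windows in all; Gata4, Gata6, Tbx5 and Wt1 had none in the table used. For both genes the RefSeq start site was 0 bases from the start of the transcript that the tables use for these regions, both compared in GRCm38. The 250 bases before each start are printed 5′ to 3′ on the coding strand, which is the minus strand for both, from chr9:24774304-24774553 and chr17:26841566-26841815 of GRCm38.p6. Positions of the measured regions below are on GRCm39 and are not comparable with these coordinates. Capitals mark GC boxes (GGGCGG or its reverse complement CCGCCC).
Tbx20: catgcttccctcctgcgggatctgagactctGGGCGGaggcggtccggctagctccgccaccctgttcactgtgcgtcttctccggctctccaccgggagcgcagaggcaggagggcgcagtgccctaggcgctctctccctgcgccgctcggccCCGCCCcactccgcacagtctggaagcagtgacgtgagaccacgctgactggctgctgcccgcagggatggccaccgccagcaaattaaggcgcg
Nkx2-5: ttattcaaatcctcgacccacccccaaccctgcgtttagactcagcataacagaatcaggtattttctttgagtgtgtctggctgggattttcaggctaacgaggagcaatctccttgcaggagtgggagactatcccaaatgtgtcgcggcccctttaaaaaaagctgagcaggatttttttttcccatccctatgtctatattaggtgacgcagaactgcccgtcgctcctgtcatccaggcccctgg

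The Tbx20 stretch was 68.8% G or C with 22 CG dinucleotides, and the Nkx2-5 stretch 49.2% with 8, against medians of 52.4% and 6 over 32851 RefSeq windows. The motifs searched, on both strands, were the CArG box bound by SRF, the TEAD motif GGAATG and the GC box. No member window held a CArG box, which 1.47% of all windows hold. A TEAD motif (GGAATG or CATTCC) was found in 1 member window, the first of 3 for Mef2c, 75 bases before the start, against 12.6% of all windows. GC boxes were found in 3 member windows and in 32.7% of all windows. At Tbx20 they began 219 and 95 bases before the start, at Hand2 74 and 65 bases and at the second Mef2c window 10 bases, with no overlap between motifs. The GC box was chosen after the sequences were seen. A match says only that the letters are present.

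Regions were found for 8 of the 10 genes, and for Gata4, Tbx20 and Wt1 in all 4 tables. Tbx5 and Mef2c had regions in both sets, Gata6 and Nkx2-5 in the T set only, and Meis1 a single region in the S set. Mef2c had the most, with 13 T set regions for TGF-b over NC, more than 93.6% of genes with a region. Per 100 kb of its RefSeq span this was 7.97 regions, against a median of 8.56 over genes with a region that span at least 10 kb. Nkx2-5, a gene too short to enter that median, had 3 regions, or 47.4 per 100 kb. Tcf21 and Hand2 had none under their own names.

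**Figure D1:**
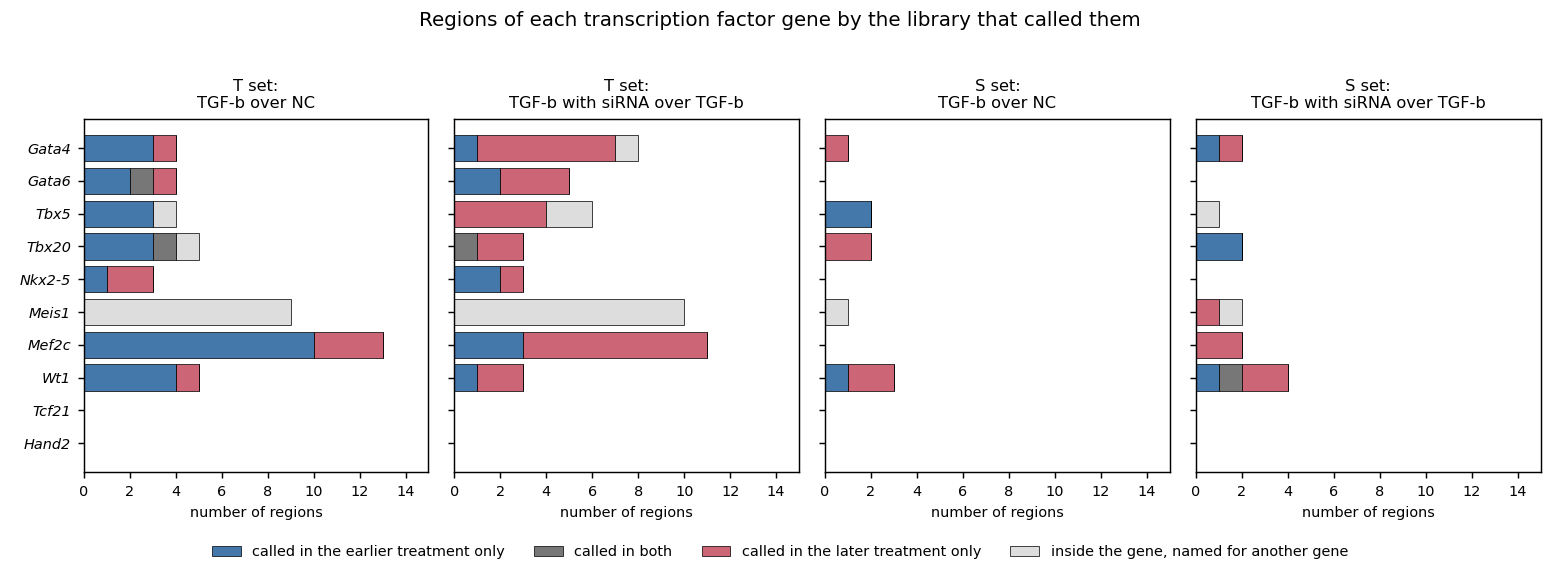
Number of regions of each gene (horizontal axis) in the 4 tables, split by the library that called them; pale bars are regions inside the gene that the tables name for another gene. Blue dominates in T set TGF-b over NC (28 of 36 regions were called in NC, 77.8%, against 74.3% of all regions) and red in siRNA over TGF-b (27 of 36 called with siRNA, 75.0%, against 74.7%), and Tcf21 and Hand2 have no bar.

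Comparing TGF-b with NC among T libraries, 8 of the 36 member regions were at least 2-fold higher with TGF-b (22.2%, against 17.3% of all regions) and 15 were at least 2-fold lower (41.7%, against 42.1%). The counting interval lay above 0 for 7 regions (14.8% of all regions do so) and below 0 for 11 (31.1%). With reads of 3 or fewer set to 3 in either library, 8 were higher (14.2% of all regions) and 8 lower (28.5%). The median log2 ratio was -0.56 (-1.60 to 0.33), beside -0.65 for all regions. With reads of 3 or fewer set to 3 it was -0.40, a setting at which the median of all regions was not computed. With ratios centred on the median of all regions, 11 were higher and 11 lower, and no share of all regions was computed after centring. All 8 higher regions had been called in the TGF-b library only and all 15 lower ones in NC only. The shares of the members were thus close to those of all regions, and the call itself sorts the direction. As for position, 15 of 36 (41.7%) lay within 3 kb of a TSS, against 16.6% of all regions and 28.4% for the related factors described at the end. Among the marker lists the share was 54.8% for fibroblast, 42.9% for immune, 25.0% for endothelial and 16.4% for cardiomyocyte genes. For siRNA against TGF-b it was 36.1% for members, 32.0% for fibroblast markers and 15.4% for all regions. These differences were not tested.

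Comparing siRNA with TGF-b among T libraries, 20 of 36 regions were at least 2-fold higher with siRNA (55.6%, against 49.7% of all regions) and 4 at least 2-fold lower (11.1%, against 16.2%). Intervals lay above 0 for 16 regions (38.9% of all) and below 0 for 4 (11.4%). At the floor of 3 reads, 16 were higher (41% of all) and 2 lower (7.92%). The median log2 ratio was 1.51 (0.10 to 2.45), or 0.76 at that floor, and that of all regions 0.97 without the floor. After centring, 14 were higher and 10 lower with a median of 0.54. Without the authors' line 19 were higher and 8 lower with a median of 1.05, beside 0.51 for all regions. No share of all regions past 2-fold was computed under either setting. All 20 higher regions were called with siRNA only. Both comparisons share the TGF-b library, which had the fewest called regions of the T set, 53121 against 127036 in NC and 134584 with siRNA, and whose part in these directions was not tested.

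The S set held fewer member regions. Of 8 regions in TGF-b against NC, 3 were at least 2-fold higher (37.5%, against 17.4% of all regions) and 2 at least 2-fold lower (25.0%, against 26.7%), with intervals above 0 for 2 (11.5% of all) and below 0 for 2 (19.2%). At the floor of 3 reads, 2 were higher (11.7% of all) and 2 lower (26%). The median log2 ratio was 0.70 (-2.34 to 1.37), or 0.46 with reads of 3 or fewer set to 3, against -0.20 for all regions without that floor. Without the authors' line 5 were higher and 2 lower, and the median was 1.29, beside 0.36 for all regions. No share of all regions past 2-fold was computed without the line. Of 11 regions in siRNA against TGF-b, 3 were at least 2-fold higher (27.3%, against 15.1%) and 3 at least 2-fold lower (27.3%, against 27.8%), with intervals above 0 for 2 (10.2% of all) and below 0 for 2 (21.8%). At that floor, 2 were higher (13% of all) and 2 lower (25.1%). The median was 0.69 (-1.44 to 1.56), with and without that floor, against -0.21 for all regions without it. After centring 5 were higher and 2 lower, again with no share of all regions computed at that setting. These counts are too small to set apart from the background shares.

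**Figure D2:**
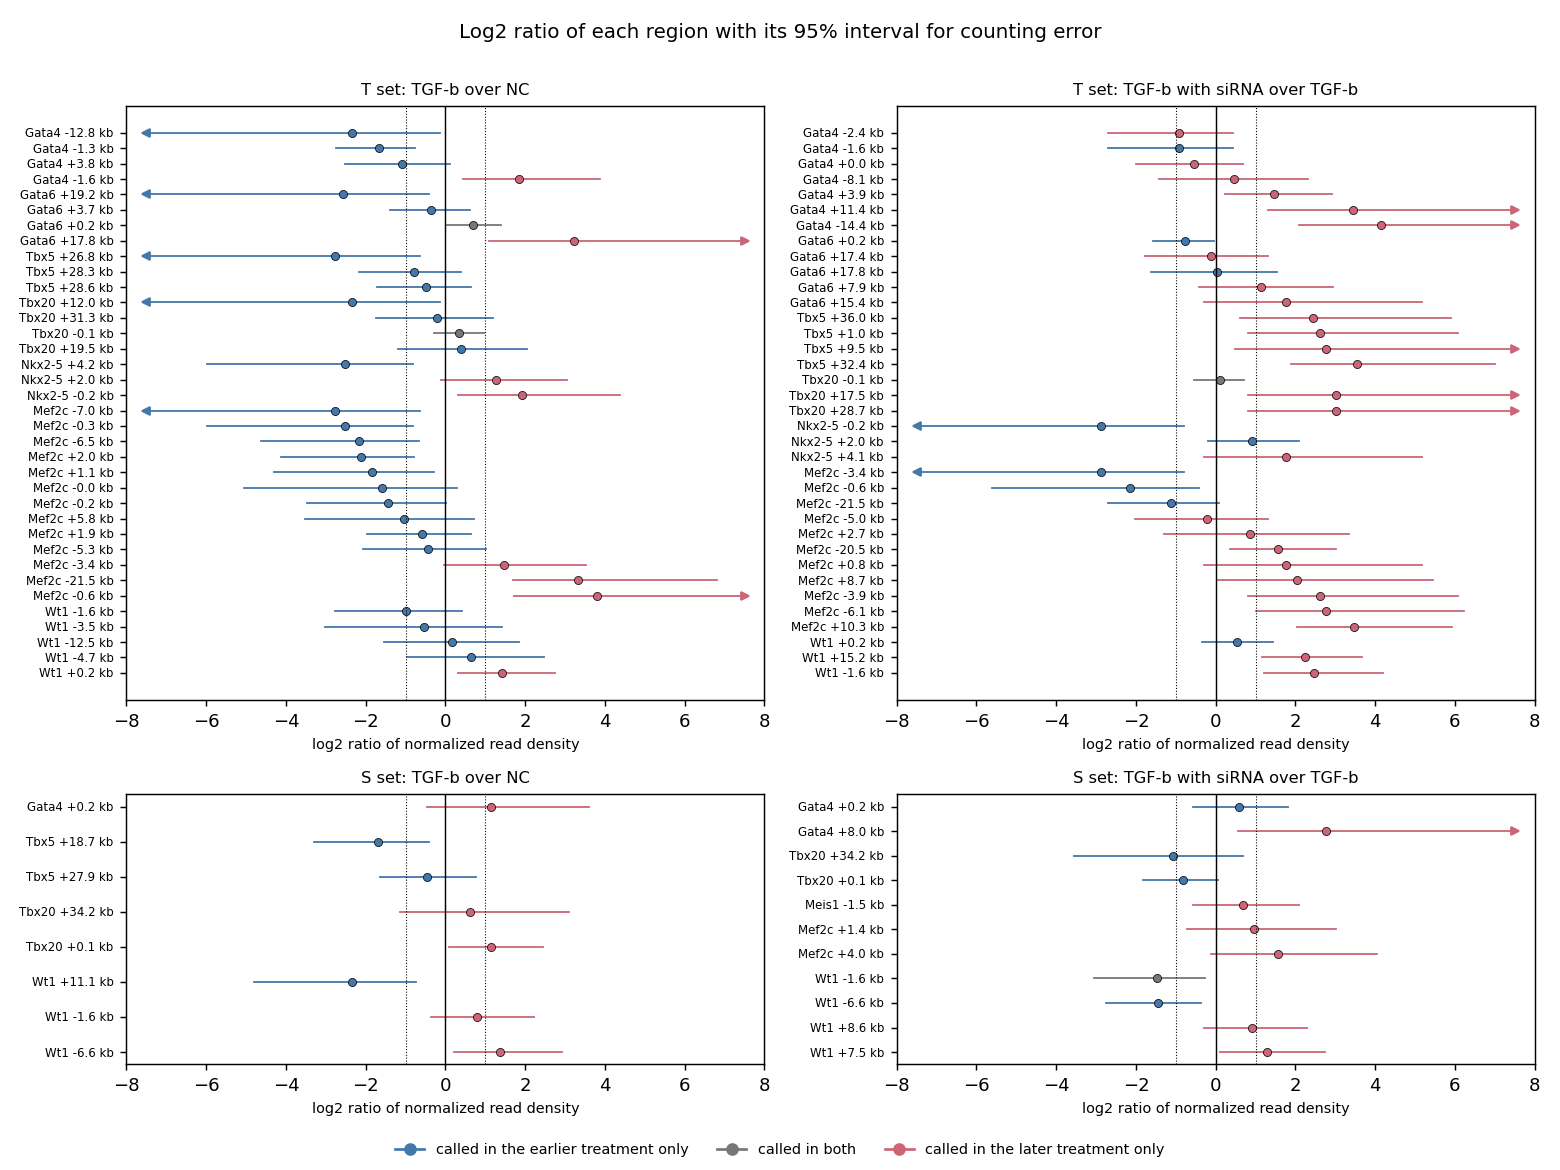
Log2 ratio of normalized read density (horizontal axis) for each member region, named by gene and distance to the TSS, in the 4 tables; lines are 95% intervals for counting error, arrows mark an interval with no bound because a library held 0 reads, and dotted lines mark 2-fold. In T set TGF-b over NC most Mef2c points lie left of 0 and 3 lie right of 1.

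Gata4 (ENSMUSG00000021944), a zinc finger factor that opens chromatin at heart muscle and mesenchymal genes, carried 4 and 7 regions in the T set tables. Its densest region, at chr14:63510331-63510542, 1295 bases before a start site, held 35 reads in NC and 10 with TGF-b, a density of 17.7 against 5.61. The log2 ratio was -1.66 (-2.75 to -0.76). A second region before an alternative start (chr14:63484247-63484374, -1590) went the other way, with 3 reads in NC, 12 with TGF-b and 4 with siRNA, and log2 ratios of 1.85 (0.43 to 3.87) and -0.92 (-2.69 to 0.43). So 2 promoter regions of 1 gene differed in opposite directions in the same pair of libraries.

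With siRNA, Gata4 gained called regions far from its starts. One at -14422 bases held 0 reads with TGF-b and 12 with siRNA, and one at 11352 bases 0 and 7 reads. With the 0 set to 3 they were 4.42-fold and 2.71-fold higher, and their intervals began at 2.09 and 1.31 on the log2 scale. A region in the 5' UTR, 33 bases after a start (chr14:63509071-63509145), was called with siRNA only although it held 13 reads with TGF-b and 6 with siRNA, a log2 ratio of -0.54 (-2.00 to 0.69). The region at -2416 bases was also called with siRNA only and held 12 and 4 reads, and its window overlaps that of the region at -1590. The call and the read number therefore pointed different ways at these regions. The remaining T set regions of Gata4 held 0 to 15 reads.

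In the S set, Gata4 had a region 199 bases after a start (chr14:63508872-63509013) with 2 reads in NC, 9 with TGF-b and 13 with siRNA. The log2 ratios were 1.14 (-0.47 to 3.61) and 0.58 (-0.57 to 1.82), neither distinguishable from 0 at this depth. A region at 7959 bases held 0 reads with TGF-b and 5 with siRNA, at least 1.71-fold higher.

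Gata6 (ENSMUSG00000005836), the close relative of Gata4 that acts beside it in heart and smooth muscle, had regions in the T set only. Its 5' UTR region, 219 bp long and 193 bases after a start on chromosome 18, was called in both NC and TGF-b. It held 28 reads in NC, 46 with TGF-b and 19 with siRNA, so TGF-b was the highest of the 3 libraries. Density was 14.5 in NC and 23.5 with TGF-b, at percentiles 92.8 and 98.4 of all regions. The log2 ratio was 0.70 (0.04 to 1.39) with TGF-b and -0.76 (-1.56 to -0.04) with siRNA, below 2-fold in both steps. A region in intron 6 at 17815 bases held 0 reads in NC, 7 with TGF-b (at least 2.35-fold higher) and 5 with siRNA, a log2 ratio of 0.04 (-1.61 to 1.54). The other 5 positions held 0 to 18 reads, and the one at 19176 bases had 6 reads in NC and 0 with TGF-b, at least 1.48-fold lower.

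Among T-box factors, Tbx20 (ENSMUSG00000031965), needed for growth of the heart chambers, had a promoter region of nearly level signal. Its T set region at chr9:24685507-24685899, 393 bp long with its middle 104 bases before the start that ends the stretch printed above, covered that start and was called in all 3 libraries. Reads were 36 in NC, 46 with TGF-b and 35 with siRNA. Density was 18.6 in NC and 23.4 with TGF-b in the first table and 19.9 and 21.3 in the second, at percentile 96.2 to 98.5 of all regions. The log2 ratios were 0.33 (-0.28 to 0.97) and 0.10 (-0.54 to 0.71), and these intervals leave room for changes of up to about 2-fold. The other 5 T set positions of Tbx20 lay 12001 to 31284 bases inside the gene with 0 to 8 reads. At 28716 and 17460 bases the reads were 0 with TGF-b and 5 with siRNA, 2.03-fold higher at either with the 0 set to 3. Both intervals began at 0.82 on the log2 scale, below 2-fold.

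The S set had a region over the same promoter, chr9:24685305-24685692, in the 5' UTR with its middle 82 bases after the start of a second Tbx20 transcript, sharing 186 bp with the T set region. It held 7 reads in NC, 25 with TGF-b and 13 with siRNA. Log2 ratios were 1.14 (0.10 to 2.45) and -0.83 (-1.83 to 0.07), so the interval of the first lay above 0 and that of the second included it. This was the single overlap between the sets among member regions called with TGF-b, 1 of 10 T regions and 1 of 5 S regions. The gap between T and S ratios was not tested, since the sets were normalized separately. An intronic S set region at 34177 bases held 2, 6 and 2 reads.

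Tbx5 (ENSMUSG00000018263), the factor of atria, left ventricle and forelimb, had no T set region under its own name called with TGF-b. Its 3 regions in NC lay 26.8 to 28.6 kb after a start and held 7, 14 and 14 reads in NC and 0, 7 and 9 with TGF-b. The first was at least 1.70-fold lower, and the intervals of the others included 0. Its 4 regions with siRNA lay elsewhere. All 4 were past 2-fold higher at the deposited densities, and 3 of them with reads of 3 or fewer set to 3. They were called with siRNA only, a class in which 67.6% of all regions were higher, or 55.2% at that floor. The largest, in intron 7 (chr5:120006632-120006706), held 1 read with TGF-b and 16 with siRNA, at 3.54 on the log2 scale (1.89 to 7.01). The one nearest a start, at 1016 bases, held 1 and 8 reads, 2.62 (0.82 to 6.07). The other 2 held 0 and 4 reads, at least 1.69-fold higher, and 1 and 7 reads, 2.45 (0.61 to 5.89). In the S set, regions at 18675 and 27948 bases held 12 and 10 reads in NC and 5 and 11 with TGF-b. The first gave a log2 ratio of -1.70 (-3.29 to -0.40) and the second -0.45 (-1.64 to 0.77).

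Nkx2-5 (ENSMUSG00000015579), a homeobox factor of early heart muscle, had T set regions only. The promoter region 203 bases before the start printed above (chr17:27060682-27060802) held 2 reads in NC, 9 with TGF-b and 0 with siRNA. The log2 ratio with TGF-b was 1.91 (0.31 to 4.38), and the siRNA library was at least 1.84-fold lower. A region in exon 2, 1976 bases after the start (chr17:27058506-27058620), held 4, 10 and 14 reads, and the intervals of both ratios included 0, at 1.28 (-0.12 to 3.06) and 0.91 (-0.19 to 2.09). The promoter thus held most reads with TGF-b and the exon most with siRNA. A region 4221 bases downstream held 12 reads in NC and 1 with TGF-b, a log2 ratio of -2.52 (-5.99 to -0.82).

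Mef2c (ENSMUSG00000005583), a MADS box factor of muscle genes, was the member with the widest range of directions. Of its 13 T set regions in TGF-b against NC, 3 were at least 2-fold higher and 8 at least 2-fold lower, or 3 and 5 at the floor of 3 reads. Over all regions the shares were 17.3% higher and 42.1% lower, and 14.2% and 28.5% at the floor. The 3 higher ones had been called with TGF-b only and were lower again with siRNA. Just before a start (chr13:83800332-83800464, -609), reads were 0 in NC, 11 with TGF-b and 1 with siRNA, at least 3.48-fold higher and then a log2 ratio of -2.14 (-5.60 to -0.42). In intron 4 (chr13:83752129-83752239, -21538) they were 1, 17 and 5, with log2 ratios of 3.33 (1.69 to 6.81) and -1.13 (-2.69 to 0.08). In intron 2 (chr13:83717020-83717117, -3399) they were 3, 9 and 0, a log2 ratio of 1.48 (-0.03 to 3.52) and then at least 1.84-fold lower.

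The lower Mef2c regions included several near its start sites. At 1989 bases (chr13:83680175-83680317) reads were 18 in NC and 3 with TGF-b, a log2 ratio of -2.12 (-4.12 to -0.79). At -311 bases they were 12 and 1, -2.52 (-5.99 to -0.82), and at -6512 bases 14 and 2, -2.17 (-4.63 to -0.67). At 1055 bases they were 11 and 2, -1.84 (-4.30 to -0.29). At -222 and -8 bases, with 11 and 6 reads in NC against 3 and 1, the intervals reached 0.01 and 0.28, and that of the region at 1910 bases (12 and 7 reads) included 0 as well. None of these was listed in the table of siRNA against TGF-b, so they have no siRNA value.

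With siRNA, 8 Mef2c regions were called that TGF-b lacked, 6 of them at least 2-fold higher and 5 of them at the floor of 3 reads, beside 67.6% and 55.2% of all regions called with siRNA only. The densest, in intron 3 (chr13:83734045-83734121, 10287), held 2 reads with TGF-b and 23 with siRNA, a log2 ratio of 3.46 (2.04 to 5.92). A region at -6114 bases held 1 and 9 reads, 2.77 (1.01 to 6.23), and one at -20468 bases 6 and 14, 1.56 (0.35 to 3.01). Those within 3 kb of a start, at 794 and 2695 bases, held 1 and 4 and 2 and 3 reads, and their intervals included 0. The S set had 2 Mef2c regions, at 1445 and 4031 bases, with 3 and 2 reads with TGF-b and 6 and 7 with siRNA, log2 ratios of 0.95 (-0.72 to 3.01) and 1.56 (-0.13 to 4.04).

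Wt1 (ENSMUSG00000016458), the zinc finger factor that marks the epicardium, had a site shared by both sets, as Tbx20 did. The region at chr2:104991485-104991595, 1613 bases before a start, held 10 reads in NC, 4 with TGF-b and 19 with siRNA in the T set. The log2 ratios were -0.99 (-2.77 to 0.41) and 2.46 (1.22 to 4.20). The overlapping S set region (chr2:104991428-104991595, 111 bp shared) held 6, 17 and 5 reads. Here the log2 ratios were 0.79 (-0.37 to 2.23) and -1.48 (-3.05 to -0.28). TGF-b was thus the lowest of 3 libraries for T and the highest for S over the same bases. For siRNA against TGF-b the intervals of the sets did not overlap, and for TGF-b against NC both included 0. The intervals cover counting error only, and the median of all regions for siRNA against TGF-b was 0.97 for T and -0.21 for S. No test of this contrast between sets was possible.

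A T set region in exon 1 of a Wt1 transcript, 168 bases after its start (chr2:104993229-104993414), held 7 reads in NC, 19 with TGF-b and 20 with siRNA. Its log2 ratios were 1.42 (0.32 to 2.75) and 0.54 (-0.35 to 1.44), so it stayed high with siRNA. In intron 5 at 15180 bases (chr2:104976374-104976442), 6 reads with TGF-b stood against 23 with siRNA, a log2 ratio of 2.24 (1.15 to 3.66). The 3 other Wt1 regions called in NC held 4 or 5 reads there and 2 to 6 with TGF-b, and their intervals included 0.

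In the S set, Wt1 gave a region that was higher and then lower. The region at chr2:104986448-104986660, 6599 bases before a start in intron 5, held 5 reads in NC, 22 with TGF-b and 7 with siRNA. Its log2 ratios were 1.37 (0.21 to 2.92) and -1.44 (-2.76 to -0.37), both past 2-fold with intervals that left out 0. At 11051 bases 9 reads in NC stood against 2 with TGF-b, -2.34 (-4.81 to -0.73). At 7473 bases (chr2:104968657-104968746), 6 reads with TGF-b stood against 15 with siRNA, 1.29 (0.10 to 2.74), and at 8636 bases 7 against 13, 0.91 (-0.29 to 2.28).

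**Figure D3:**
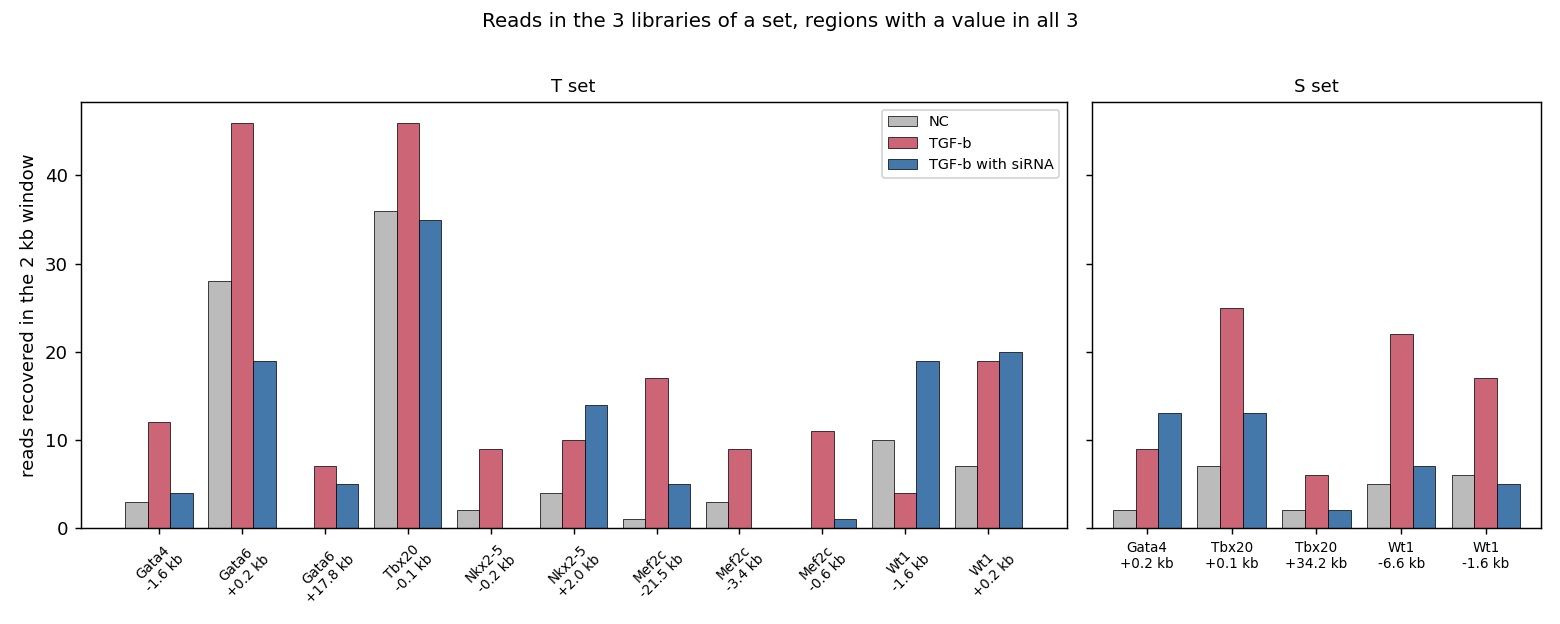
Reads recovered in the 2 kb window (vertical axis) in the NC, TGF-b and siRNA libraries, 1 bar each, for the 11 T set and 5 S set member regions present in both tables of their set. TGF-b is the highest bar at the Mef2c and S set Wt1 regions, and the lowest at the T set Wt1 region 1.6 kb before a start; at the Tbx20 start the bars are 36, 46 and 35.

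The design asks whether a value raised by TGF-b is lowered again with the siRNA. A value in all 3 libraries existed for 11 T set and 5 S set member regions. A region enters both tables of a set mostly by its call in the TGF-b library they share. That call was present for 10 of the 11 and 5 of the 5 members, and for 90.6% and 96.1% of all regions that could be followed. The counts here therefore come from regions kept for their TGF-b signal and are a description only. In the T set 8 of the 11 were at least 2-fold higher with TGF-b, all 8 called with TGF-b and not in NC, against 46.7% of the 58631 regions followed and 17.3% of all regions. Then 4 of the 11 were at least 2-fold lower with siRNA, against 27.3% of those followed. Among raised regions alone this was 4 of 8 members, against 58.6%. The 4 were the Mef2c regions at -609, -3399 and -21538 bases and the Nkx2-5 promoter, with 1, 0, 5 and 0 reads in the siRNA library. With reads of 3 or fewer set to 3, 8 members were raised and 2 of them lowered, the Mef2c regions at -609 and -21538 bases, against 31.8% of all regions raised at that floor. In the S set 3 of 5 were higher (33.8% of 26934 regions followed), and 1 of 5 was then lower (22.1%), the Wt1 region at -6599 bases. That is 1 of 3 raised members, against 65.3% of raised S set regions, and at the floor 1 of 2, against 65.8%. Without the authors' line, 3 of the 5 S set and 5 of the 11 T set members were higher and then lower. The share of all regions was not computed at that setting. Regions low with TGF-b could hardly enter, so a path from lower to higher was not assessed. Both steps use the same TGF-b library, so a chance high value there enters both.

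**Figure D4:**
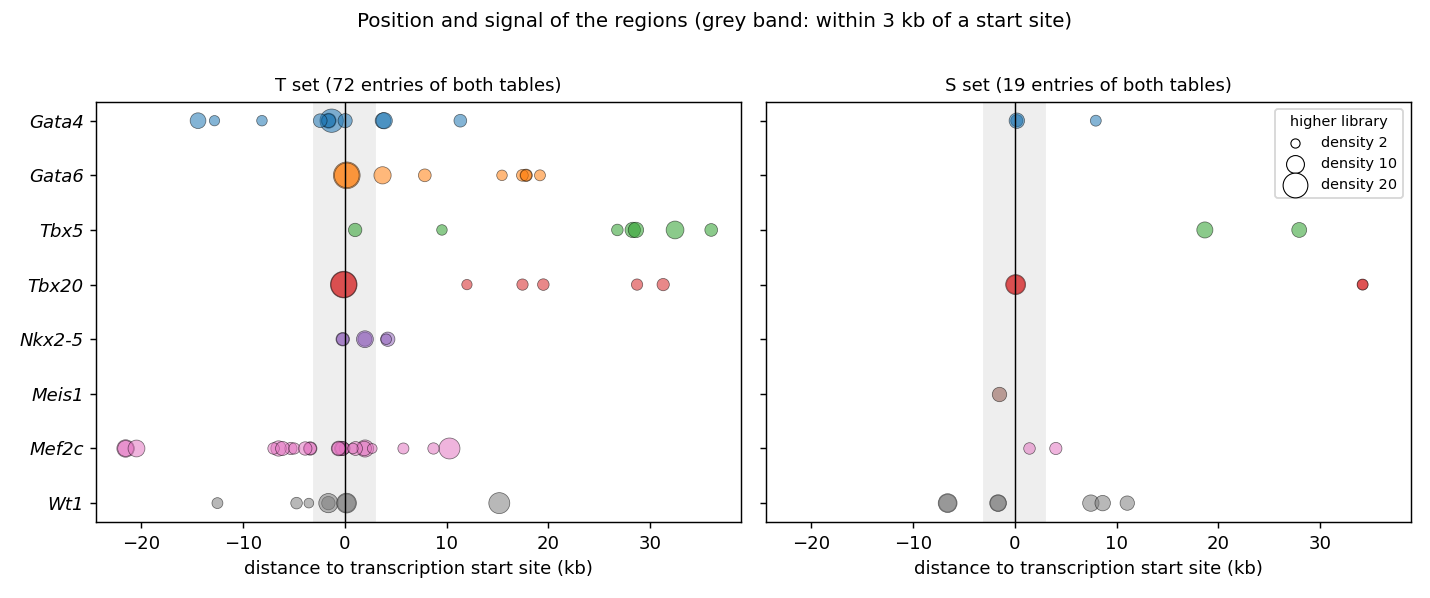
Distance of each member region to the TSS in kb (horizontal axis) by gene, T set left and S set right, with the area of a circle growing with the density of the higher library and the grey band marking 3 kb on either side. The largest circles sit at the starts of Tbx20 and Gata6, and Tbx5 regions lie mostly beyond 18 kb.

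Density was somewhat higher near starts. In the T set, the median of the mean density of the members was 4.08 within 3 kb of a TSS and 3.27 beyond it for TGF-b against NC, and 4.24 and 3.17 for siRNA against TGF-b. Over all regions the corresponding values were 6.19 and 3.76, and 5.20 and 3.31. In the S set the members had 5.82 and 5.20, and 5.90 and 4.19, beside 6.12 and 4.70, and 7.32 and 4.71 over all regions. A start can lie inside a longer transcript, as at Wt1 and Mef2c, where regions before one start were annotated to introns of another.

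Overlap between the sets was small. Of the member regions called in NC, 0 of 28 for T and 0 of 3 for S overlapped a region of the other set, against 2.21% and 9.89% of all regions. With TGF-b it was 1 of 10 and 1 of 5, at the Tbx20 start, against 5.33% and 10.8%. With siRNA it was 1 of 27 and 1 of 7, at the Wt1 region, against 3.13% and 14.6%.

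Meis1 (ENSMUSG00000020160), a homeobox cofactor of the TALE class, appeared once by name, in the S set 1514 bases before a start (chr11:18970457-18970542). It held 7 reads with TGF-b and 11 with siRNA, a log2 ratio of 0.69 (-0.56 to 2.08). The annotation column nevertheless placed 9 and 10 T set regions and 1 region in each S set table inside Meis1, and the tables name these for the neighbouring transcripts 8430419K02Rik and Gm16140 whose starts are nearer. At chr11:18939099-18939289 reads were 29 in NC, 20 with TGF-b and 0 with siRNA. The log2 ratio was -0.48 (-1.31 to 0.31) with TGF-b. For siRNA against TGF-b the upper bound of the interval was -1.93, since no read was left. At chr11:18887784-18887939 the 3 libraries held 17, 15 and 6 reads, and the log2 ratio was -0.10 (-1.09 to 0.87) and then -0.73 (-2.18 to 0.46). At chr11:18855635-18855720, 21 reads in NC stood against 3 with TGF-b, -2.34 (-4.34 to -1.03). Other regions inside Meis1 were higher with siRNA. At chr11:18870710-18870782 reads were 11 with TGF-b and 20 with siRNA, a log2 ratio of 1.27 (0.29 to 2.37). At chr11:18870859-18870965, within 2 kb of the last, they were 13 and 20, 1.05 (0.10 to 2.08). In all, 1 of the 9 regions in the first T set table was at least 2-fold higher and 1 lower, and 4 of the 10 in the second were higher and 2 lower. Over all regions 17.3% were higher and 42.1% lower in the first, and 49.7% and 16.2% in the second. At the floor of 3 reads the Meis1 counts were 0 and 1, and 3 and 1, beside 14.2% and 28.5%, and 41% and 7.92%. The region in the first S set table (8 and 5 reads) was at least 2-fold lower, with an interval that included 0. Regions inside Tbx5 were likewise named for Gm43269, 1 in the first and 2 in the second T set table and 1 in the S set, 1 inside Tbx20 for Dpy19l2 and 1 inside Gata4 for Neil2. The Tbx5 region at chr5:120018903-120019085, in intron 8, was called with TGF-b and not in NC or with siRNA, and held 0, 5 and 8 reads. It was at least 1.78-fold higher with TGF-b, and the log2 ratio with siRNA was 1.04 (-0.41 to 2.67). The S set region at chr5:120015558-120015755 held 18 reads with TGF-b and 9 with siRNA, -0.84 (-2.04 to 0.21). Regions named for other genes were looked up after the members' values were seen.

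Tcf21 (ENSMUSG00000045680), a basic helix-loop-helix factor that marks resident fibroblasts of the heart, and Hand2 (ENSMUSG00000038193), of the same class and active in heart and neural crest mesenchyme, had no region by symbol or by annotation. Regions next to them carry the names of adjoining non-coding transcripts. These were also chosen after values were seen. Gm10824, beside Tcf21, had 3 T set regions in each comparison. With TGF-b its region 116 bases after a start held 29 reads in NC and 13 with TGF-b (log2 ratio -1.05, -2.03 to -0.18). One at 1594 bases held 19 and 0, and the third 9 and 4. With siRNA the reads were 0 and 6, 4 and 12 and 1 and 13, past 2-fold higher in 3 of 3, also with reads of 3 or fewer set to 3. Hand2os1, beside Hand2, had 5 T set regions with 5 to 15 reads in NC and 0 to 2 with TGF-b. All 5 were past 2-fold lower at the deposited densities and 2 of them at the floor of 3 reads, those with 15 and 1 and 12 and 2 reads. With siRNA, 2 Hand2os1 regions held 4 and 16 and 0 and 3 reads, and at that floor 1 was past 2-fold higher. Values of the other transcripts beside Hand2 differed from these. Gm34030 had 1 T set region with 4 reads in NC and 9 with TGF-b, at 1.15 on the log2 scale (-0.29 to 2.93), and 2 with siRNA, each with 9 and 6 reads and -0.06 (-1.56 to 1.30). Hdnr had 2 regions with 1 and 6 and 3 and 5 reads for NC and TGF-b, at 2.01 (0.13 to 5.45) and 0.77, the latter with an interval that included 0. Of its 3 regions with siRNA, 1 was higher and 2 were lower past 2-fold at the deposited densities, with 2 and 4, 6 and 0 and 5 and 1 reads, and 0 were past it at the floor. The Gm10824 and Hand2os1 regions were called in NC only in the first table and with siRNA only in the second. Over all T set regions called in NC only, 59.2% were at least 2-fold lower with TGF-b, and 39.5% at the floor. Of those called with siRNA only, 67.6% were past 2-fold higher, or 55.2% at the floor.

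The S set had fewer regions at these transcripts. Beside Hand2, an Hdnr region held 9 reads in NC and 0 with TGF-b, at least 3.85-fold lower. Hand2os1 had a region with 9 and 4 reads, at -1.59 on the log2 scale (-3.37 to -0.15), and one with 7 and 8, at -0.41 (-1.80 to 1.02). Gm34030 had a region with 8 reads in NC, 11 with TGF-b and 9 with siRNA, with ratios of -0.16 (-1.39 to 1.16) and -0.17 (-1.42 to 1.04). With siRNA, a further Hand2os1 region held 9 and 10 reads, and its interval included 0. Beside Tcf21, Gm10824 had a region with 5 reads in NC and 4 with TGF-b, at -0.86 (-2.70 to 0.86). Of these S set values for TGF-b over NC, the Hdnr region and 1 Hand2os1 region had intervals below 0, as did 19.2% of all S set regions.

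The 20 related factors and partners given here, among them Tbx18, Isl1, Meis2, Zfpm2, Myocd and Twist1, gave larger numbers. In the T set 18 had a region for TGF-b against NC and 19 for siRNA against TGF-b. Of their 88 regions in the first, 12 were at least 2-fold higher (13.6%, against 17.3% of all regions) and 40 at least 2-fold lower (45.5%, against 42.1%), and their median log2 ratio was -0.86. Of 108 in the second, 63 were higher (58.3%, against 49.7%) and 14 lower (13.0%, against 16.2%), with a median of 1.40. In the S set 11 and 12 of the 20 genes had a region. There 8 of 24 regions were higher and 4 lower with TGF-b (33.3% and 16.7%, against 17.4% and 26.7% of all regions, median 0.57), and 3 of 30 higher and 8 lower with siRNA (10.0% and 26.7%, against 15.1% and 27.8%, median -0.35).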

How the data were processed

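Bowtie2 mapping to GRCm39 and peak calling with a tool given as Masc2 are stated in the study's methods, whereas the submitters' processing notes name BWA 0.7.12 and mm10. Deposited positions equalled those of GRCm38 for 2 of 22 transcripts of the members, so coordinates are taken as GRCm39. The values deposited by the authors are a signal, normalized read density, equal to reads plus 1 per kb of a 2 kb window, which the authors rescaled along a line within each of the 4 tables. Whole reads were recovered within 0.1 in 99.96% to 99.99% of regions, after the step was tested on simulated data. Deposited fold changes and p-values were not used. With 1 library per group no test was possible. Ratios were computed per table, at a threshold of 2-fold, with Wilson 95% intervals on the share of reads (pandas 2.3.3, numpy 2.4.6). All members were to be named, with the densest region, those within 3 kb of a TSS and those whose interval lay beyond 2-fold. Members and lists were chosen with earlier results of these data known. One gene of the list of related factors is not reported here, and the list is given without it. Alternatives covered centring, a 4-fold threshold, a density filter, the authors' line, reads of 3 or fewer, a pseudocount of 0.1 reads, an overlap of 50% and regions assigned by annotation (added later). Library totals were not analysed here.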

Additional observations from a re-analysis of the deposited data

Results flagged for a closer look

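At the Wt1 region about 1.6 kb before a start, the log2 ratios of the sets had opposite signs. The siRNA was labelled differently in each set, and for TGF-b over NC the intervals of both ratios included 0. For T and S libraries, respectively, the log2 ratio with TGF-b over NC was -0.99 and 0.79, and with siRNA over TGF-b 2.46 and -1.48. At the Tbx20 start the ratio with siRNA over TGF-b was 0.10 for T and -0.83 for S. Over all regions its median was 0.97 for T and -0.21 for S. The median log2 ratio of the member regions for TGF-b against NC was -0.56 for T and 0.70 for S, over different regions. The medians of all regions were -0.65 and -0.20, and after centring on them the members' medians were 0.09 and 0.90, of 1 sign. Each value comes from 1 library per treatment, and none of these differences was tested.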

How the results depend on the processing

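Of 91 values recomputed under alternatives, 1 changed sign and 21 moved, where a count moved by more than 1.5 times or a median left its 95% interval. By that rule 69 did not move, but the intervals of the medians are wide. Over the alternatives the median of member regions ranged from -0.72 to 0.09 for T set TGF-b against NC, from 0.54 to 1.61 for T set siRNA against TGF-b, from 0.46 to 1.29 for S set TGF-b against NC and from 0.58 to 0.90 for S set siRNA against TGF-b. Centring on the median of all regions gave a T set median of 0.09 for TGF-b against NC, 10 lower T set regions with siRNA, and 5 higher S set regions with siRNA. At 4-fold, 3 regions were higher and 9 lower in T set TGF-b against NC, 0 and 1 in the S set, and 1 and 0 in S set siRNA against TGF-b. Among regions above the median of mean density, 4 were higher and 4 lower in T set TGF-b against NC, 7 and 1 with siRNA, 1 was lower in S set TGF-b against NC and 1 higher with siRNA. Without the authors' line, 8 T set regions were lower with siRNA, 5 S set regions were higher with TGF-b and 3 S set regions were higher and then lower, and the median of all regions moved from -0.65 to -0.78 and from 0.97 to 0.51 in the T set and from -0.20 to 0.36 in the first S set table. With reads of 3 or fewer set to 3, 8 T set regions were lower with TGF-b and 2 with siRNA, and 2 were higher and then lower, the last count added after the data were seen. At an overlap of 50%, 0 T set regions called with TGF-b overlapped the S set. Shares of all regions past 2-fold were not computed for centring, the 4-fold threshold, the density filter or without the authors' line. The cause of these moves was not tested. A pseudocount of 0.1 reads and the addition of regions inside a member gene, 12 values each, changed no direction or count by more than 1.5 times. No paired analysis was possible because each group holds 1 library. Depth limits every region named here, with at most 46 reads.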
